A study of Homo sapiens with 3 samples.

Results

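Common fragile site long genes are very long genes that break or carry deletions when DNA replication is slowed. The 9 genes described here, FHIT, WWOX, LRP1B, MACROD2, IMMP2L, CSMD1, CTNNA3, DLG2 and NAALADL2, were chosen by name from the 19970 protein-coding genes that RefSeq places on the chromosomes of the loop list. Loops were assigned to a gene when an end overlapped its body, which gave 205 of the 279618 listed loops. As background, such genes are known to be replicated late in S phase from few internal origins, so that a stalled fork inside them may not be met by another fork before mitosis. The origin recognition complex binds origins and loads the replicative helicase, and ORC2 is one of its subunits. Neither replication timing nor origins were measured in the data used here, so these properties of the genes could not be checked.

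The loops come from Hi-C, which ligates and sequences pairs of sites that lie close together in crosslinked nuclei. There were 3 libraries, 1 per group, from HCT116, a human colorectal carcinoma cell line, and all 3 lines lack p53. The ORC2 deletion line is a single CRISPR/Cas9 clone called ORC2B2, the ORC2 rescue line is a selected clone that carries ORC2 with both of its UTRs on the vector pLHCX, and the wild-type line is the parental p53-/- line. The series asks which changes of chromosome structure depend on ORC2. In the authors' deposited table each loop has a left position, a right position and a class, which reads conserved gain, conserved lost or not conserved, called gained, lost and not conserved here. The sources used here say neither which libraries a gain or a loss compares nor what "conserved" means, so no class is tied to ORC2. The table holds no loop strength, sequencing depth or value per library, so no value below has an error between libraries and no test between the lines was possible. Depth is unknown. The 6 columns named S1, S2 and S3 of the compartment table match no sample label and were not used, so compartment scores along the genes and their changes of sign were not analysed here.

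None of the 9 genes had a gained or a lost loop end. In the authors' deposited table all 205 loops with an end in these genes were classed as not conserved, against 1.96% gained and 0.196% lost over the whole list. Not conserved is not taken to mean unchanged, since the file is named for changed loops. At the share of the whole list 4.03 gained loops would lie among 205. A count of 0 of 205 would still permit a gained share of 1.46% if each loop were independent, by the limit that 3 counts would give (95% Wilson upper bound 1.84%). Neighbouring loops are not independent. Joined where both ends lie within 10 kb, the 205 loops formed 24 regions, for which 0 allows a share of up to 12.5%, while 7.8% of regions in the whole list were gained. Counted by region, the absence of gained loops is therefore within what the number of regions allows. These limits cover counting error only. Lost loops at the share of the whole list were not detectable with 205 loops.

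The genes fell into those with many loops, those with few and those with none. MACROD2 had 83 listed loops and WWOX 70, which together made 74.6% of the 205. FHIT had 25, LRP1B 12, DLG2 11 and CTNNA3 4. No listed loop ended in CSMD1, IMMP2L or NAALADL2. Bins of the authors' compartment table covered 100% of all 9 gene bodies, including these 3, so the 3 regions are present in that table. Only bin positions were read, which does not show whether a loop could have been detected there. The number of loops did not follow gene length, since WWOX is the second shortest of the 9 and CSMD1 the second longest. Both ends lay inside the same gene for 184 of the 205 loops, which is 89.8% (95% Wilson interval 84.8 to 93.2%). The other 21 had 1 end inside, and no loop spanned a whole gene with both ends outside it. The interval treats loops as independent, which neighbouring loops are not. At the 82 other protein-coding genes at least as long as IMMP2L, the share with both ends inside was 73.8%, and the difference was not tested. That share leans on ASIC2, which alone held 2190 of their 4723 loops, 2114 of them with both ends inside. It is therefore not taken as typical of long genes.

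**Figure D1:**
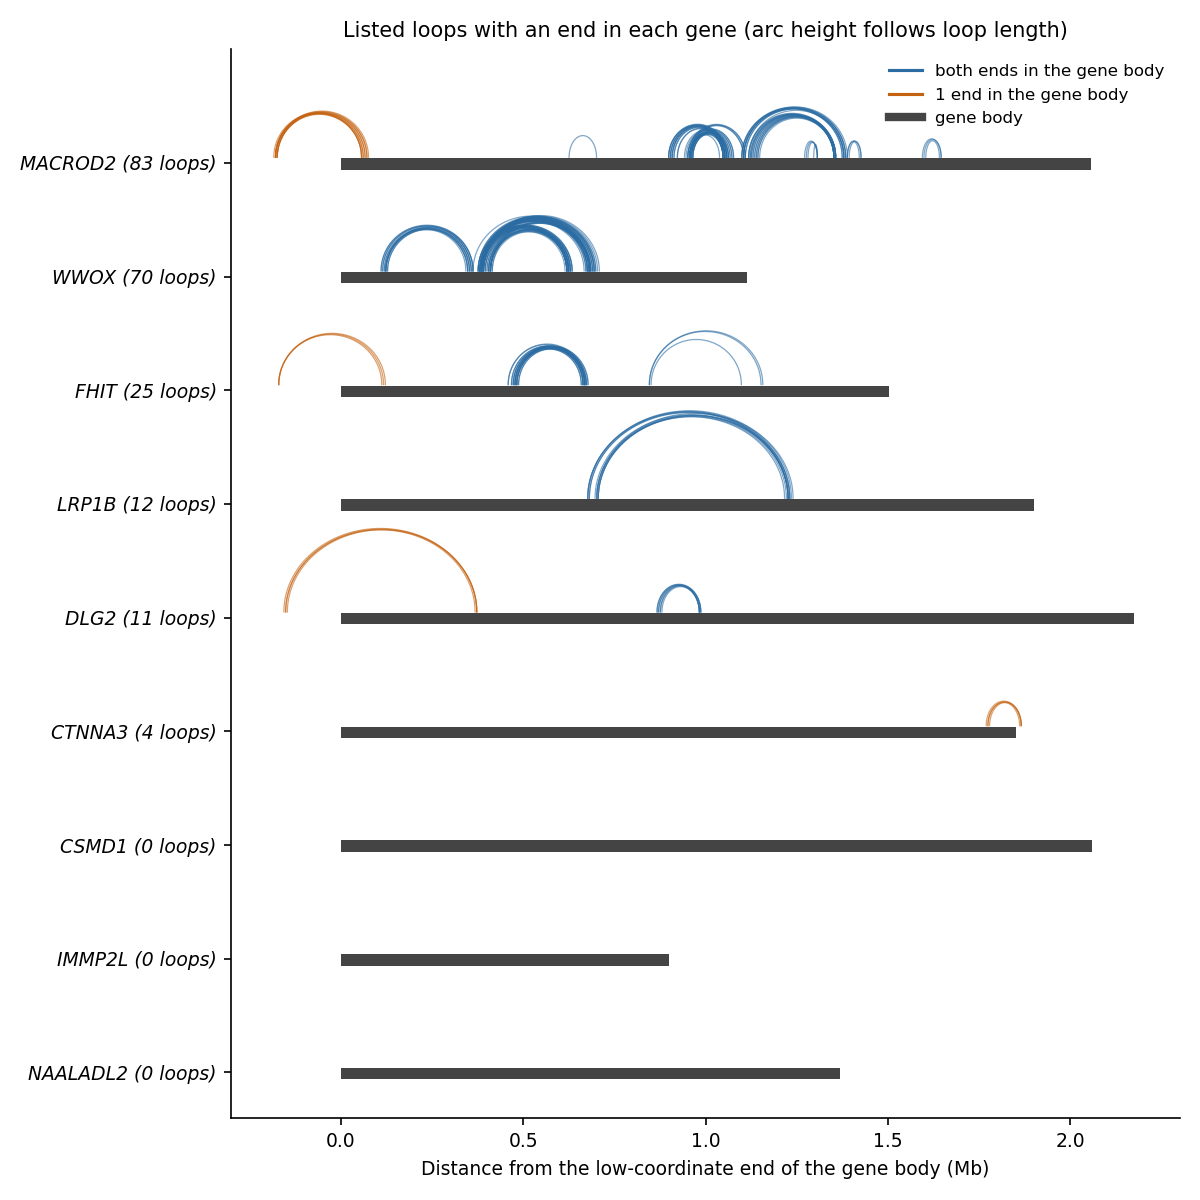
Listed loops (arcs) with an end in each of the 9 gene bodies (bars), drawn in Mb from the low-coordinate end of the gene, with blue for loops that have both ends inside and orange for loops with 1 end inside. Loops bunch into a few blocks, as in WWOX with 2 blocks, and CSMD1, IMMP2L and NAALADL2 have none.

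FHIT encodes a hydrolase of diadenosine polyphosphates that is often deleted in carcinomas. Its body spans 1.5 Mb of the minus strand of chromosome 3 (59747277 to 61251452, GRCh38.p14). Its 25 loops lay in 3 blocks, where a block joins loops whose left positions are at most 20 kb apart. The main block held 19 loops of 177 to 214 kb, with left positions from 60206294 to 60234747 and right positions from 60406599 to 60425098, entirely inside the gene. A further 3 loops, of 247 to 311 kb, lay between 60593257 and 60904207. The remaining 3, of 282 to 292 kb, shared the left position 59577254, 170 kb below the low end of the gene, and ended inside it. That outer end overlapped CFAP20DC-DT, a long noncoding RNA gene. Of the gene body, 43.3% lay under at least 1 listed loop, and the stretch above 60904207, which holds the upstream start at 61251452, lay under none. The closest that a listed position of a FHIT loop came to either of its 2 annotated starts was 125 kb.

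WWOX encodes an oxidoreductase with WW domains and is another gene often deleted in tumours. It spans 1.11 Mb of the plus strand of chromosome 16 (78099654 to 79212667), and all 70 of its loops had both ends inside it. The first block held 13 loops of 219 to 252 kb, with left positions from 78210232 to 78227908 and right positions from 78442538 to 78462211. The second held 57 loops of 204 to 323 kb, with left positions from 78462212 to 78514998 and right positions from 78714387 to 78808475. The blocks adjoined: 3 loops ended at 78462211 and 1 loop began at the next base, 78462212. Together they covered 53.7% of the body, the highest share of the 9 genes. All of these loops lay between 111 and 709 kb from the annotated start, so the far end of the gene lay under none. MAF, a transcription factor gene, overlaps the far end of WWOX in the annotation, and no WWOX loop ended in it.

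MACROD2 encodes an enzyme that removes mono-ADP-ribose from proteins. It spans 2.06 Mb of the plus strand of chromosome 20 (13995516 to 16053197) and had loops of 9.92 to 285 kb. The largest of its 7 blocks held 37 loops of 81.8 to 159 kb, with left positions from 14894463 to 14960623 and right positions from 15033778 to 15104635. The next held 25 loops of 204 to 285 kb, from 15094916 to 15143933 on the left and 15347461 to 15384365 on the right. Some of the 7 blocks met or overlapped and others lay apart. The block lowest on the chromosome ended at 14071499, and the one after it began at 14621435. At 15099710, 15104635 and 15384365 a loop ended 1 base before the listed left position of another. Short loops lay inside or beside the second large block, with 4 of 9.92 to 34.9 kb and 3 of 32.3 to 37.3 kb. Of the others, 10 loops of 231 to 255 kb joined the first 76 kb of the gene to a position below it, and the outer end of all 10 overlapped NDUFAF5, which encodes an assembly factor of respiratory complex I. NDUFAF5 was the one protein-coding gene at an outer end of any of the 205 loops. FLRT3, a cell adhesion gene that lies within MACROD2, had none of the 83 loop ends.

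LRP1B encodes a giant receptor of the LDL receptor family. It spans 1.9 Mb of chromosome 2 (140231423 to 142131016). All 12 of its loops were of one kind, 515 to 558 kb long, with left positions from 140908485 to 140937251 and right positions from 141448071 to 141471460. They bracketed the middle of the gene and covered 29.6% of it. Their median of 534 kb was the highest of the 6 genes with loops.

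DLG2 encodes PSD-93, a scaffold protein of synapses. It spans 2.17 Mb of the minus strand of chromosome 11 (83455012 to 85628373), and its 11 loops were of 2 kinds. There were 4 loops of 519 to 529 kb from positions 83299064 to 83308625, below the low end of the gene, to 83823269 and 83827957 inside it. The outer ends of all 4 overlapped CCDC90B-AS1, and those of 2 also LOC105369420, both long noncoding RNA genes. The other 7, of 102 to 120 kb, ran inside the gene from 84322160 to 84335499 on the left to 84437943 or 84441915 on the right. The right ends of all 7 overlapped the annotated start at 84437806, 1 of 9 starts that the RefSeq table gives for DLG2. The listed position 84437943 is 137 bases from that start.

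CTNNA3 encodes alpha-T-catenin, a cell junction protein. It spans 1.85 Mb of the minus strand of chromosome 10 (65912523 to 67763594). Its 4 loops, of 86.7 to 96 kb, left the gene at its upstream end, from 67681952, 67686620 or 67691229 to 67773443 or 67777968. No gene is annotated at their outer ends. The left end of 1 of the 4 overlapped the annotated start at 67696195, and with ends read 10 kb inward 3 of the 4 did. LRRTM3, a synaptic adhesion gene within CTNNA3, had none of the 4 loop ends.

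Among the 18 annotated starts of the 7 genes that the start table lists, 9 of them of DLG2, these 2 lay under a loop end. The share of all annotated starts under a loop end is not given here, so 2 of 18 is not read as few or many. The 30 bases just upstream of each are shown because these are the places where a listed loop end and a start of a member coincide. They are printed 5′ to 3′ on the minus strand, from RefSeq (GRCh38.p14), and the capital marks the last base before the start.
DLG2, chr11:84437807-84437836: gacttgactgcagcttcccttcctcctgaC
CTNNA3, chr10:67696196-67696225: ttagataccacccaccctggcttgtaaccT
The 300-base windows around these starts were searched on both strands for the GC box GGGCGG and the TATA box TATAAA. Neither was found in either window, while 45% of all 35116 start windows in the table hold the GC box and 11.5% the TATA box. The overlap depends on how an end is read. With the listed position alone in place of the 5 kb end, neither start is touched. A further DLG2 start, at 84317337, lay 4.82 kb from the listed left position 84322160. It is not counted because it lies on the outer side of that position and ends were read inward. The RefSeq table used gives gene bodies and starts but no exons, so whether other loop ends lie in exons or introns was not determined.

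IMMP2L, which encodes a subunit of a mitochondrial inner membrane peptidase, spans 0.9 Mb of the minus strand of chromosome 7 (110662644 to 111562492). CSMD1 encodes a membrane protein that regulates complement and spans 2.06 Mb of chromosome 8 (2935361 to 4994914). NAALADL2, related to the glutamate carboxypeptidases, spans 1.37 Mb of the plus strand of chromosome 3 (174440982 to 175810548). These 4.33 Mb held no listed loop end, and LRRN3, a gene within IMMP2L, held none either. An absent entry means that no loop was listed, and the thresholds for listing are not stated in those sources.

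Loop lengths differed between the genes. The median was 534 kb at LRP1B, 252 kb at WWOX, 196 kb at FHIT, 149 kb at MACROD2, 116 kb at DLG2 and 89.1 kb at CTNNA3. The lengths at LRP1B did not overlap those at WWOX, FHIT, MACROD2 or CTNNA3, whereas those at WWOX and FHIT overlapped. At DLG2 the lengths split, with none between 120 and 519 kb. Over the 205 loops the median was 228 kb (217 to 238 kb, binomial interval of the median, treating loops as independent), against 234 kb over the whole list, with quartiles of 133 and 375 kb. The median rests on the 2 genes with most loops: it was 191 kb without WWOX and 248 kb without MACROD2.

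**Figure D2:**
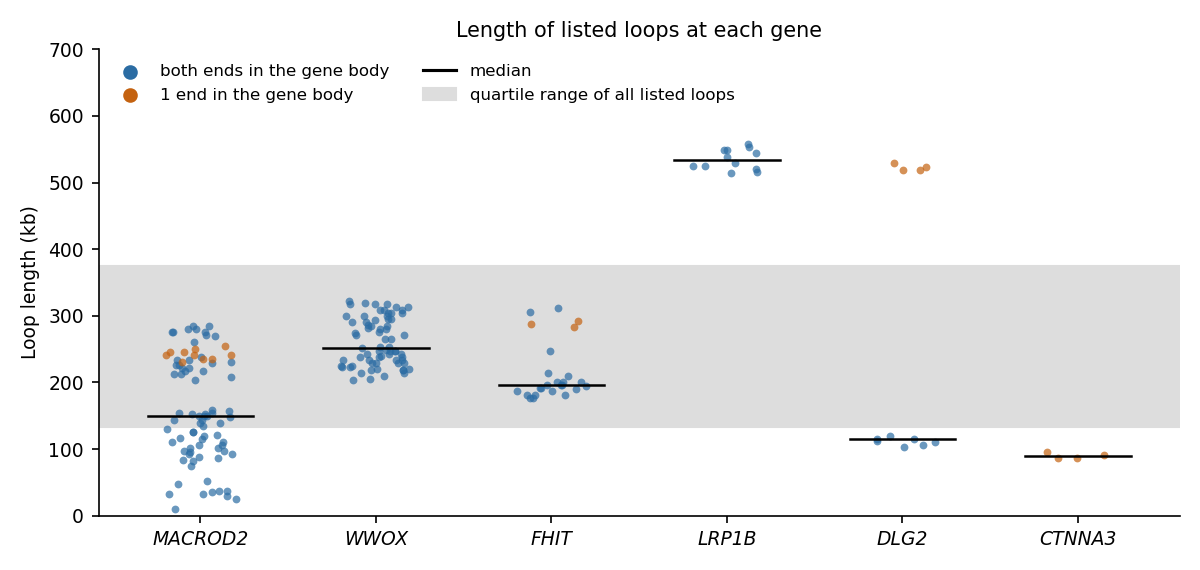
Length in kb of each listed loop at the 6 genes with loops (points; blue with both ends inside, orange with 1), the median of each gene (black line) and the range between the quartiles of all listed loops (grey band, 133 to 375 kb). LRP1B loops sit above the band at 515 to 558 kb and CTNNA3 loops below it at 86.7 to 96 kb.

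Loop ends were sparse in most of the 9 genes, and whether they were sparser than in other genes of this length depended on the summary used. The 9 bodies, 14.9 Mb in all, held 389 ends, or 26.1 per Mb. WWOX had 126 ends per Mb, MACROD2 75.8, FHIT 31.2, LRP1B 12.6, DLG2 8.28 and CTNNA3 2.16. Over the whole list the median 1 Mb window of the genome had 68 ends, counted by listed position, with quartiles of 0 and 244, and 28.5% of windows had none. Thus WWOX and MACROD2 lay above the median window and the other 7 genes below it. The mean over windows was 185 ends, and all 9 genes lay below that mean. The median over the 9 genes was 8.28 ends per Mb, against 0.34 over the 82 other protein-coding genes at least as long as IMMP2L, of which 9 are on the second list of fragile site genes below. A listed end was present in 6 of the 9, against 41 of the 82 (50%). Ranked by ends per Mb among all 91, WWOX stood at position 10, MACROD2 at 14, FHIT at 26, LRP1B at 38, DLG2 at 40 and CTNNA3 at 45. The summed density of the 82 genes was higher, 80.8 ends per Mb, and 38.9 without ASIC2, an ion channel gene with 3763 ends per Mb.

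**Figure D3:**
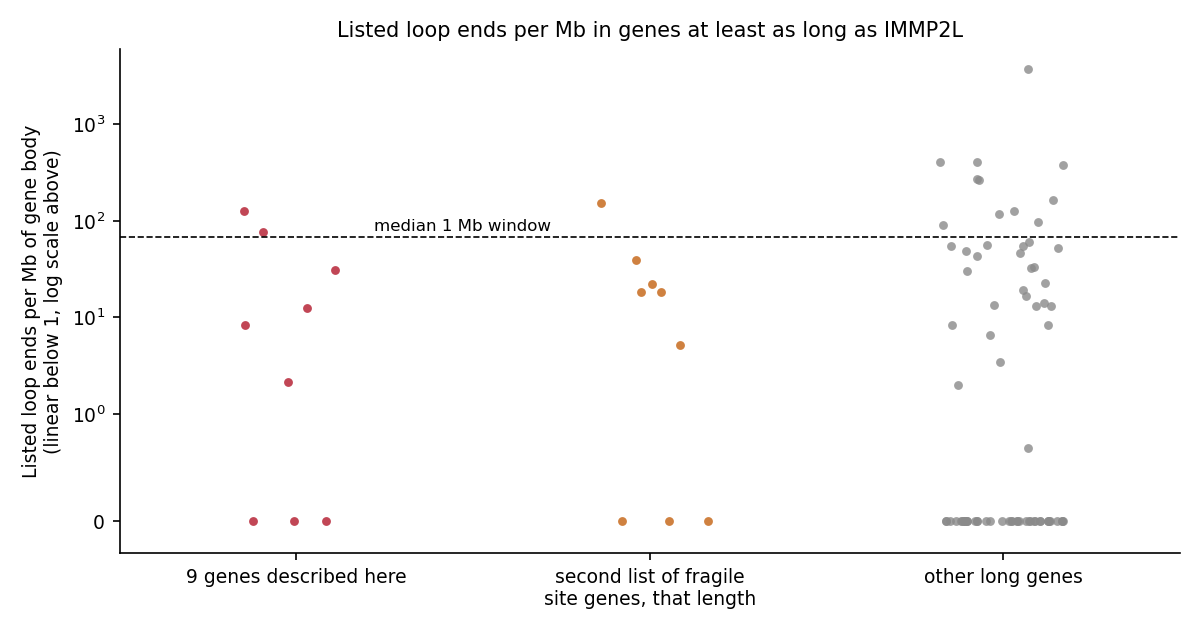
Listed loop ends per Mb of gene body (linear below 1, log scale above) in the 9 genes, in genes of that length on the second list of fragile site genes and in the remaining protein-coding genes at least as long as IMMP2L. Each point is a gene, the dashed line is the median of 1 Mb windows (68), and the 9 genes run from 0 to 126, inside the range of the other long genes.

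The absence of gained ends can be read against the same genes. Of the 6 members with listed ends 0 had a gained or lost end, whereas 24.4% of the 41 other long genes with listed ends had a gained end and 14.6% had a lost end. Over all 9907 protein-coding genes with a listed end, 12.7% had a gained end and 1.85% a lost one, and with shares of this size 0 of 6 genes is not read as a difference. Among loops, 59 of 4723 (1.25%) were gained at the other long genes in the authors' deposited table, against 1.96% over the whole list. ASIC2 alone supplied 2190 of the 4723 loops and 16 of the 59 gained ones. The lower share thus leans on that gene and is not read as a trait of long genes. A second list of 15 genes linked to fragile sites (DAB1, DPYD, CCSER1, MAGI2, AUTS2, CNTNAP2, SDK1, LSAMP, RORA, RAD51B, NBEA, ESRRG, RBFOX1, DMD and IL1RAPL1) did hold such loops. Of these, 11 had a listed end, 5 a gained one and 1 a lost one. The gained ones were RAD51B (13 of 498 loops), RORA (3 of 114), LSAMP (3 of 21), NBEA (2 of 10) and AUTS2 (1 of 11). The lost one was RBFOX1, with 1 loop. Gained and lost ends were thus present in other fragile site genes of this table.

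Gained loops lay in the flanks, within 1 Mb, of 6 of the 9 genes. The same held for 26 of the 82 other long genes (31.7%) and for 61.2% of all 19970 protein-coding genes. The count of 6 of 9 is near the share over all genes and above that of the other long genes, and neither difference was tested. In the authors' deposited table, 617 loops had an end within 1 Mb of a member and none in it. Of these, 49 were gained (7.94%, Wilson interval 6.06 to 10.3% if loops were independent), and 0 were lost. In the gene bodies the gained count was 0 of 205. The 49 fell into 8 of 72 regions (11.1%), against 71 of 598 regions (11.9%) in the flanks of the 82 other long genes. In those flanks 505 of 8604 loops (5.87%) were gained and 70 were lost. Within 500 kb the shares were 15.4% for the members (37 of 241 loops) and 7.57% for the other long genes. For the 15 genes on the second list it was 2.6% (25 of 963). Of the 37 loops, 16 were the 1 region beside IMMP2L described below, and shares by region within 500 kb are not given. In the 1 Mb flanks of the 15 genes on the second list, 35 of 1607 loops (2.18%) were gained, in 12 of 124 regions (9.68%). The flank shares of the second list depend on which of its genes are kept. The flank distances were chosen after the gained loops had been seen there, and the difference rests on few regions, so it was not tested.

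The closest lay at WWOX, whose annotated start is at the low end of its body. There 9 gained loops of 408 to 426 kb, between 77668090 and 78094571, lay below the gene, and the nearest of their ends was 5.08 kb from it. They formed 1 region, and no protein-coding gene lay at their ends. At IMMP2L the upstream flank held 16 gained loops of 577 to 617 kb (111771181 to 112392592) in 1 region, 209 kb from the gene, all with an end in DOCK4, which encodes an exchange factor for RAC1. They made 18.4% of the 87 loops in the flanks of IMMP2L, a gene with no loop of its own. At CTNNA3 the upstream flank held 11 of 65, in 2 regions that began 84.6 and 94 kb from the gene. Of these, 4 had an end at ATOH7, a retinal transcription factor gene, and 3 at MYPN, a sarcomere protein gene.

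The DLG2 flank held 10 gained loops of 159, in 2 regions from 813 kb above the gene, each loop with ends at ME3, a malic enzyme gene, and PRSS23, a protease gene. CSMD1 had 2 gained loops of 20 in its flanks, 909 kb away, and MACROD2 1 of 92, at the motor protein gene KIF16B, 455 kb away. LRP1B had 13 flank loops and NAALADL2 21, with 0 gained, and FHIT had no flank loop beyond its own. The nearest gained loop lay 1.32 Mb from FHIT, 1.41 Mb from LRP1B and 1.77 Mb from NAALADL2. The genes named in the flanks were not on a list made for this purpose and were chosen after their loops had been seen.

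**Figure D4:**
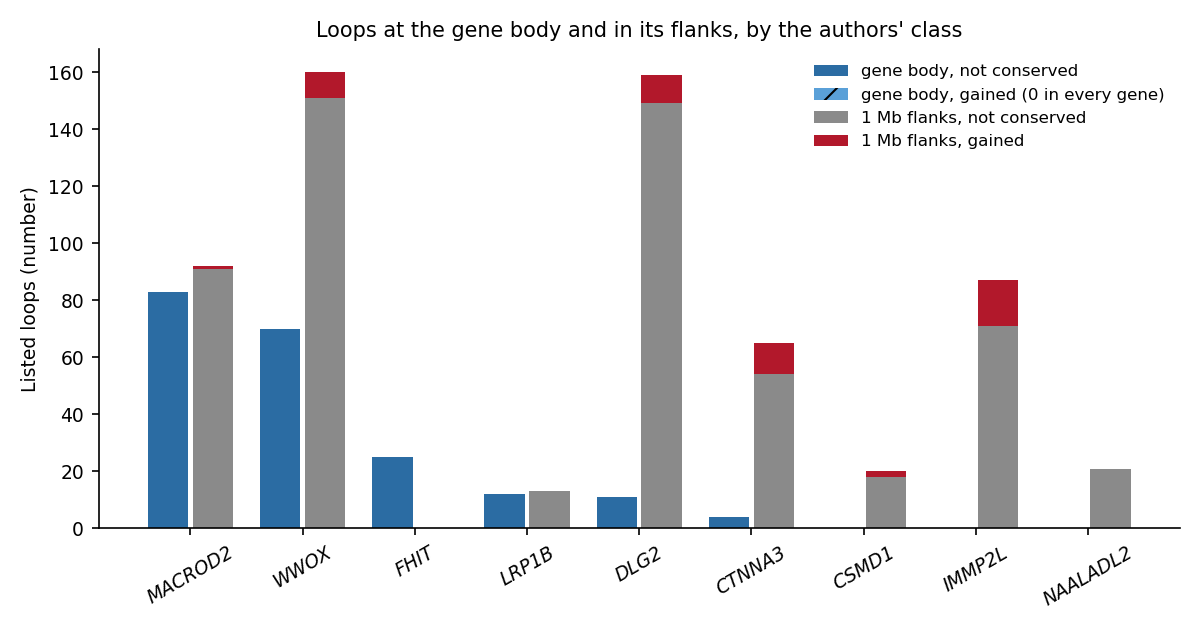
Number of listed loops with an end in each gene body (left bar of a pair) and in the 1 Mb flanks only (right bar), split by the authors' class. The body bars hold 0 gained loops, and the flank bars of IMMP2L, CTNNA3, DLG2, WWOX, CSMD1 and MACROD2 hold 16, 11, 10, 9, 2 and 1.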

How the data were processed

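Hi-C was made from 1 library each of ORC2 deletion, ORC2 rescue and wild-type HCT116 p53-/- cells, after DpnII digestion, per the labels' protocols. The authors deposited a list of loops with positions in hg38, per the file's name, and a class word. Bowtie, hg19 and hg38 are named in the submitters' processing notes, with no roles. What loop caller, normalisation and thresholds were used is not given in the sources used here.

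Of 279669 rows, 49 had no class word and 2 were repeats. These were left out, and none of the 49 lay at a member. A loop end was taken to be the 5 kb on the inner side of its position. Gene bodies and starts came from RefSeq GRCh38.p14, and all 9 genes matched by symbol, 7 of them also in the start table. The 6 compartment columns per sample match no label and were not used. Only bin positions (250 kb) were. Computation used Python 3.11.15, pandas 2.3.3, numpy 2.4.6 and scipy 1.17.1. The counting and joining steps were tested on simulated data. With 1 library per group, no test was made. All 9 members are named, with the annotated genes at the outer ends of their loops. The members and lists were chosen with earlier results of these data known. The second fragile site list is given without some of its genes, which are not reported here. The gained share of loops inside its 15 remaining genes is not given, because it depends on which genes are kept. The flank shares of that list, which are given, depend on this choice as well.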

Additional observations from a re-analysis of the deposited data

How the results depend on the processing

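Of 71 alternatives, 63 left a count or density within 1.5 times its value, or a share or median within its interval. Reading ends 10 kb inward or as the listed position alone, and leaving out loops under 100 kb, changed none of the counts of listed, gained and lost loops at the 9 genes, nor the density of ends, by more than that. Gained loops stayed at 0, and among these settings only the 10 kb reading could have added any. Many of the 63 could not have moved, so their number does not measure how robust the results are. With 0 of 205 gained, leaving out a gene or joining loops must again give 0. Leaving out a gene without loops cannot move the median length, and leaving out FHIT, which has no flank loop, cannot move the flank share. The number of loops over an annotated start did depend on how an end is read, as given with the starts. Widening each body by 50 kb brought in the 9 gained loops beside WWOX, so that the gained share became 4.13% and 1 gene had a gained end. Joining neighbours turned 205 loops into 24 regions by construction. Leaving out each gene in turn moved the median loop length between 191 and 248 kb. The gained share of flank loops, for which the alternatives were chosen after seeing the data, was 15.4% within 500 kb and 11.1% by region. It was 6.23 to 9.14% when the flank of 1 gene was left out. Compartment alternatives were not run because the columns match no sample label. No paired analysis was possible because the loop table carries no per-library values and replicates are lacking in all 3 groups. Depth is unknown, so its effect could not be examined.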
